A study of Apostichopus japonicus with 12 samples.

Results

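The gene for the mitochondrial chaperonin Hsp56 (BSL78_09882) and the gene beside it, BSL78_09881, were followed during heat stress in gut tissue of Apostichopus japonicus, a sea cucumber. They are 2 of the 30221 gene models in the deposited expression table. They were chosen by their FPKM across the 4 groups of these same animals, and the neighbour also by its position. Their levels, ratios and differences are therefore given as a description, with no test. The file describes BSL78_09881 only as a hypothetical protein, and it is called the neighbour here.

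Chaperonins of this family are encoded in the nucleus and work in the mitochondrial matrix. There they form a barrel of stacked rings in which newly imported or heat-damaged proteins fold, with the help of ATP and of a small co-chaperonin that closes the barrel like a lid. In human cells the chaperonin gene and the co-chaperonin gene lie head to head and share a promoter, and both respond to heat. The table describes 1 model as Hsp56 or HSP60 and 0 models as a 10 kDa heat shock protein or chaperonin 10. The identity of the neighbour was not tested.

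Intestine RNA was sequenced from 12 animals, 3 in each of 4 groups, with a library for every animal. Control animals stayed at 18 °C. The others were warmed from 18 °C at 2 °C per hour and sampled 6 h or 48 h after the water reached 26 °C, or 6 h after it reached 30 °C. The labels gave the controls no sampling time, and the same controls served all comparisons with heat. No strain, sex or age was given, and all 4 groups were otherwise described alike.

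Values are FPKM, the fragments on a gene per kilobase of its coding length after the authors' scaling for depth. Between 1788303 and 3956056 reads on genes were recovered per library, and 18729 models with a mean of at least 0.5 FPKM were tested. The summed FPKM of the libraries at 30 °C ran from 2078693 to 3014690, against 562397 to 1535293 in the other 9. The 15 models of the inducible heat shock proteins HSP26, HSP70 and HSP90 were also highest at 30 °C. At 26 °C for 6 h the sum lay within the range of the controls, while these models did not. Together they held 93.4 to 398 FPKM in control animals, 7772 to 48174 at 26 °C for 6 h, 971 to 2405 for 48 h, and 264097 to 784192 at 30 °C. Levels of Hsp56 and the neighbour at 30 °C are therefore given below as deposited and with every library set to the same sum. The FPKM of all other models are as deposited.

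The genes lie next to each other on scaffold MRZV01000295.1, which carries 39 models, in the coordinates of the deposited file (genome build not given in the sources used here). The neighbour runs from 616342 to 618630 on the minus strand and Hsp56 from 621241 to 627617 on the plus strand. They thus point away from each other, head to head, with 2610 bases between the ends of the models. The models may lack untranslated exons, so the distance between the transcription starts may be shorter. The neighbour has a coding length of 312 bases, or 104 codons, within a span of 2289 bases, which leaves 1977 bases outside the coding length. Hsp56 has a coding length of 1854 bases, or 618 codons, within 6377 bases. The models do not overlap, so no base inside them is counted for both genes.

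**Figure D1:**
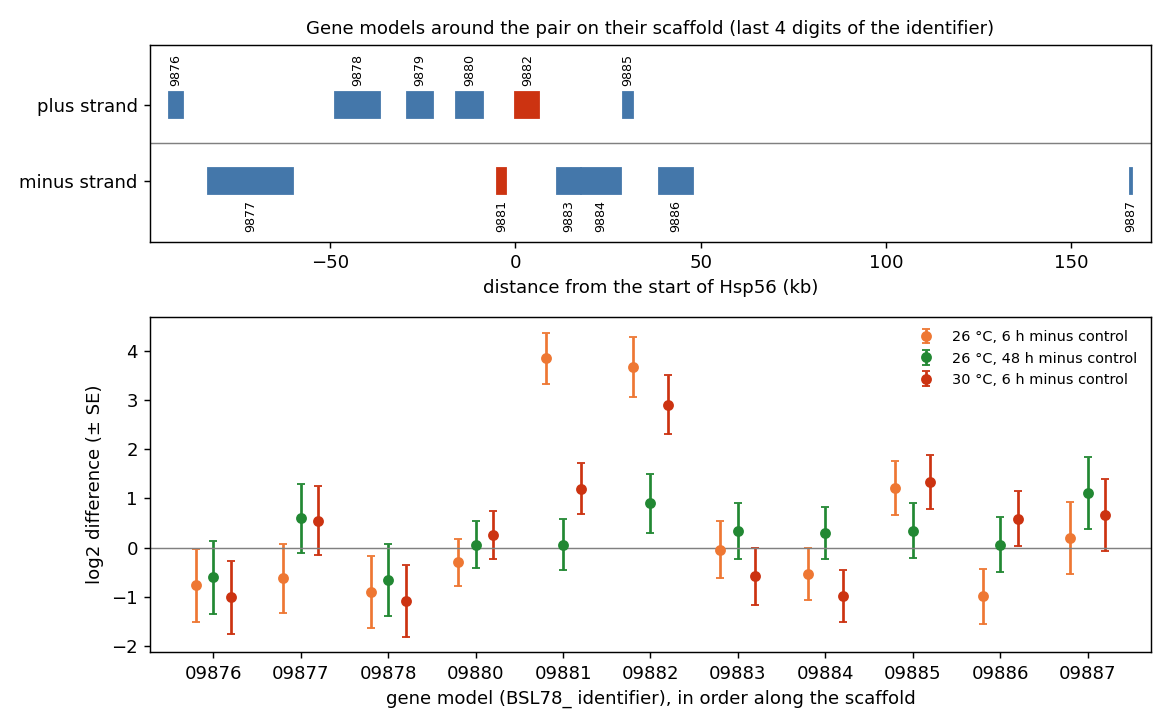
Top, map of Hsp56, its neighbour (both red) and the 5 models on either side by strand and distance from the start of Hsp56 in kb. Bottom, each tested model's difference from control (points) with its standard error (bars) on the log2(FPKM + 1) scale in the 3 heat groups. Hsp56 and the neighbour are the highest after 6 h at 26 °C (3.68 and 3.86), while the tested flanking models lie between -0.99 and 1.21.

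Hsp56 was highest after 6 h at 26 °C. Control animals 1 to 3 had 47.4, 123 and 102 FPKM of it, from 226, 824 and 1446 reads. The animals at 26 °C for 6 h had 1059, 925 and 1328 FPKM, from 3673, 4419 and 9611 reads. Every animal of that group lay far above every control, a separation in the higher direction that 4.81% of all tested models showed. The 48 h animals had 140.1, 170.3 and 165.5 FPKM, and the 30 °C animals had 580, 1392 and 324 FPKM. In the deposited values all 3 animals of either group lay above the highest control, as they did for 5.84% of models at 48 h and 6.28% at 30 °C. The spread at 30 °C was wide, and its animal 2 exceeded every animal at 26 °C for 6 h while animals 1 and 3 lay below them.

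The group means of Hsp56 were 90.9 ± 39.02 FPKM in controls (SD, n = 3 in this and every group) and 1104 ± 205 after 6 h at 26 °C. The later 26 °C animals averaged 159 ± 16.2 and the 30 °C animals 765 ± 558. The mean at 30 °C was 452 without animal 2. As a share of the reads on genes, Hsp56 held 0.00727% to 0.0389% in controls and 0.175% to 0.265% after 6 h at 26 °C. Its share at 30 °C, of 0.0275% to 0.141%, overlapped the controls. In the order of levels, 26 °C for 6 h stood above 30 °C, but these groups overlapped. The 48 h group followed and control was lowest. Against control, the means were 12.1-fold higher after 6 h at 26 °C, 1.75-fold higher after 48 h and 8.42-fold higher at 30 °C. The corresponding limma differences on the log2(FPKM + 1) scale were 3.68, 0.90 and 2.91, each with a standard error of 0.61.

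The neighbour was also highest after 6 h at 26 °C, but at 30 °C it was nearer to control. Control animals 1 to 3 had 107, 190 and 128 FPKM of it, from 86, 214 and 305 reads. At 26 °C for 6 h the values were 2572, 1606 and 1981 FPKM, from 1501, 1291 and 2413 reads. No animal of this group came near the highest control, and 4.81% of all tested models also lay above every control there. After 48 h it was 94.4, 181 and 170.3 FPKM, which overlapped the controls. At 30 °C it was 307, 439 and 238 FPKM, from 171, 297 and 108 reads. These animals lay above every control, as for 6.28% of all tested models. They also lay below every animal at 26 °C for 6 h, a separation that 5.88% showed. At 26 °C, every 48 h animal also lay below every 6 h animal for both genes, as for 4.76% of models.

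The neighbour's group means were 142 ± 42.8 FPKM among controls, 2053 ± 487 at 26 °C for 6 h, 149 ± 47.3 for 48 h and 328 ± 102 at 30 °C. Its share of the reads ran from 0.00277% to 0.00821% in controls, from 0.0561% to 0.0716% after 6 h at 26 °C and from 0.00339% to 0.00751% at 30 °C. After 48 h and in controls the FPKM levels did not differ beyond their spread. Against control, the means were 14.5-fold higher after 6 h at 26 °C, 1.05-fold higher after 48 h and 2.32-fold higher at 30 °C. The limma differences were 3.86, 0.05 and 1.20 on the log2(FPKM + 1) scale, each with a standard error of 0.52. Between the 6 h groups, the mean at 26 °C was 6.25-fold that at 30 °C for the neighbour and 1.44-fold for Hsp56. Between the times at 26 °C, the mean at 6 h was 13.8-fold that at 48 h for the neighbour and 6.96-fold for Hsp56.

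The genes were chosen on these contrasts, so nothing is read from those shares. In whole tissue, fewer cells of a type and less RNA per cell cannot be told apart, and this holds for every level given here.

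Markers of the cell types of the gut were summed in each library. The 33 gut epithelium models held 582 to 1973 FPKM in controls, 511 to 1875 at 26 °C for 6 h, 733 to 1444 for 48 h and 494 to 5529 at 30 °C, and 31 of them had a read. The 51 muscle models held 734 to 1454, 803 to 933, 1339 to 1737 and 1271 to 2731 FPKM in the same order, and the 48 coelomocyte models held 1440 to 2653, 428 to 3023, 907 to 4675 and 1319 to 3185. The 35 neuron models and the 7 germ line models also overlapped control in every heat group. No marker sum separated a heat group from control. Model by model, muscle and coelomocyte markers were mostly lower at 26 °C for 6 h, where Hsp56 and its neighbour were highest, although limma called 0 of either list. The muscle models had a median log2 difference from control of -0.73, with 4 of 34 tested above 0, and the coelomocyte models one of -0.90, with 6 of 23 above 0, against -0.08 over all tested models. Under the other scalings and voom the muscle median ran from -1.01 to -0.63 and the coelomocyte median from -0.93 to -0.56. The gut epithelium models had a median of 0.46, with 13 of 23 above 0. At 30 °C the medians were -0.28 for muscle, 0.28 for coelomocytes and 0.33 for gut epithelium, against -0.07 over all tested models. With a common sum those of coelomocytes and gut epithelium turned to -0.84 and -0.15, where the median over all tested models was -0.85. With quantile scaling that of coelomocytes turned to -0.05, against -0.06 over all. After 48 h the medians in the same order were -0.07 (0.09 with a common sum), 0.48 and 0.00. The part of cell composition in the levels of Hsp56 and its neighbour was not tested.

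**Figure D2:**
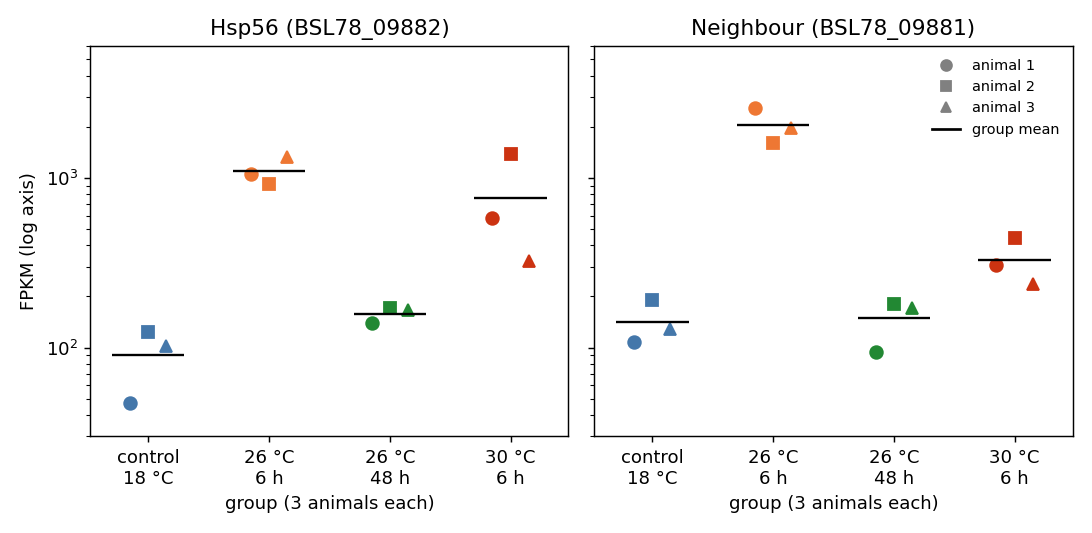
FPKM of Hsp56 and of the neighbour in each of the 12 animals on a log axis, by group, with a line at each group mean. Both genes were highest after 6 h at 26 °C, and at 30 °C Hsp56 ran from 324 to 1392 FPKM while the neighbour ran from 238 to 439.

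Setting each library to the same summed FPKM lowered the values at 30 °C. Hsp56 was then 42.7, 168 and 252 in controls and 386, 902 and 149 at 30 °C, so the groups overlapped. The neighbour was then 96.5, 260 and 316 in controls and 205, 285 and 109 at 30 °C, with overlap again. On this scale the difference of Hsp56 at 30 °C from control was 1.60 and that of the neighbour was -0.10 (log2), so the sign for the neighbour turned. The rescaling moved the median of all tested models at 30 °C by -0.77, to -0.85. Relative to that median Hsp56 was 2.45 higher and the neighbour 0.74 higher, against 2.98 and 1.28 in the deposited values. After 6 h at 26 °C both genes stayed apart from control on the common scale, with Hsp56 at 1053, 1144 and 1831 and the neighbour at 2558, 1987 and 2731. After 48 h Hsp56 overlapped the controls on that scale, at 134, 327 and 394.

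The ratio of the neighbour to Hsp56 within an animal does not depend on how libraries are scaled, and it was lower after 48 h and at 30 °C than in controls. The neighbour's FPKM in control animals was 2.26, 1.54 and 1.25 times that of Hsp56. At 26 °C for 6 h it was 2.43, 1.74 and 1.49 times. The values of these groups overlapped. After 48 h the ratio was 0.674, 1.06 and 1.03, below every control. At 30 °C it was 0.530, 0.316 and 0.733, the only group in which every animal had less of the neighbour than of Hsp56.

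The exact 95% counting intervals of these ratios were narrow beside the gaps at 30 °C. The lowest control ratio, in animal 3, had an interval of 1.10 to 1.42, and the highest ratio at 30 °C, in animal 3, one of 0.595 to 0.897. The 48 h ratios of 1.06 in animal 2 and 1.03 in animal 3 had intervals of 0.935 to 1.21 and 0.908 to 1.16. Both intervals overlap that of control animal 3. The intervals cover counting error only, since amplified reads without molecular identifiers are not independent molecules.

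On the log2 scale the ratio averaged 0.71 ± 0.43 for controls, 0.88 ± 0.36 at 26 °C for 6 h, -0.15 ± 0.37 for 48 h and -1.01 ± 0.61 at 30 °C. Against control the ratio was 1.81-fold lower after 48 h and 3.29-fold lower at 30 °C, with no overlap in either case. Between the 6 h groups it was 3.71-fold lower at 30 °C than at 26 °C, and at 26 °C it was 2.04-fold lower after 48 h than after 6 h, again with no overlap. The difference between 26 °C for 6 h and control was 0.17 and ran from -0.02 to 0.41 when single animals were left out. The genes were chosen with these patterns in view, so the ratio too is a description. The share of other gene pairs whose ratio separates in this way was not computed, so nothing is read from the lack of overlap.

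**Figure D3:**
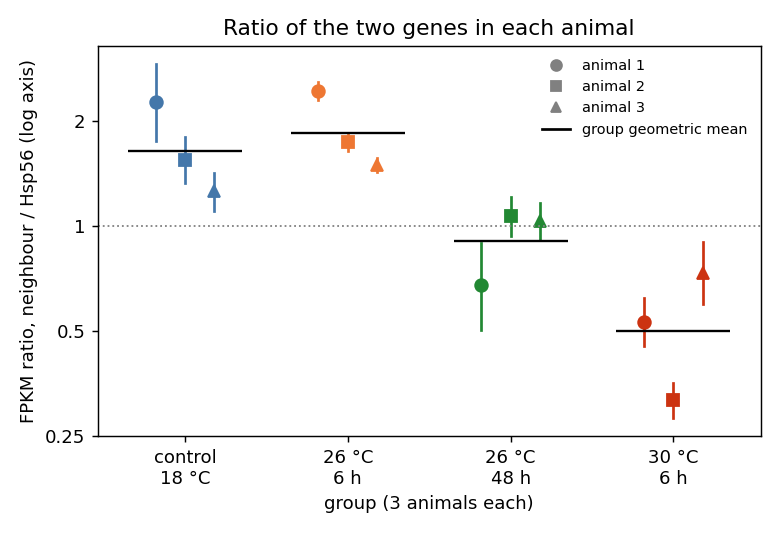
Ratio of the neighbour's FPKM to that of Hsp56 in each animal on a log axis, with exact 95% counting intervals. Controls (1.25 to 2.26) and animals after 6 h at 26 °C (1.49 to 2.43) overlap, and all animals at 30 °C (0.316 to 0.733) lie below them.

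Animal by animal, the genes often shared their order within a group. Among the controls both were lowest in animal 1 and highest in animal 2. The 48 h animals showed the same order at both ends, and at 30 °C both genes were highest in animal 2 and lowest in animal 3. After 6 h at 26 °C both were lowest in animal 2, while the neighbour was highest in animal 1 and Hsp56 in animal 3. Over the 12 libraries the Pearson correlation of the genes on log2(FPKM + 1) was 0.86, and it was 0.73 after the group means were taken out. The libraries share their depth and their scaling between both genes, and the correlation is a description.

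The flanking models were called in no comparison. Of the 5 models on each side, 9 were tested and 0 were called by limma with Benjamini-Hochberg adjustment in any of the 5 comparisons, with a lowest adjusted p of 0.281. Over all tested models limma called 0.0641% against control at 26 °C for 6 h, 0% for 48 h and 0.651% at 30 °C. It called 0.246% between 30 °C and 26 °C at 6 h and 0.0107% between 48 h and 6 h at 26 °C. With background shares this low, 0 of 9 is not a result about the flanking models. The model before the neighbour is a mitochondrial-like citrate synthase (BSL78_09880), which starts the citric acid cycle. It stood at 20.7 ± 4.21 FPKM in control animals, 16.9 ± 5.87 at 26 °C for 6 h, 21.5 ± 4.03 for 48 h and 24.6 ± 2.26 at 30 °C. On the other side of Hsp56, the hypothetical model BSL78_09883 stood at 131 ± 74.0, 117 ± 18.4, 167 ± 98.0 and 81.4 ± 22.9 FPKM in the same order. The splicing factor 3B subunit 1 (BSL78_09884), part of the spliceosome, differed from control by -0.54, 0.30 and -0.99 (log2).

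The flanking model with the highest difference from control in both 6 h groups was a COQ10-like B (BSL78_09885), named for a mitochondrial protein that binds coenzyme Q. It ran from 6.61 to 13.0 FPKM in controls, from 16.7 to 42.1 at 26 °C for 6 h and from 20.5 to 36.0 at 30 °C. In the deposited values neither heat group overlapped the controls, as for 4.81% of all tested models at 26 °C and 6.28% at 30 °C. Its log2 differences of 1.21 and 1.33 did not pass the limma test (Benjamini-Hochberg adjusted p = 0.614 and 0.41). The others tested were a RIF1-like (BSL78_09876), an amino acid transporter (BSL78_09877), the calcium-binding protein sorcin (BSL78_09886) and the hypothetical models BSL78_09878 and BSL78_09887, and an FGF receptor-like model (BSL78_09879) was below the filter. Over all 9, the differences ran from -0.99 to 1.21 after 6 h at 26 °C and from -1.09 to 1.33 at 30 °C.

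Hsp56 works with other matrix chaperones. Words for mitochondrial folding in the descriptions gave 9 models, which include the BCS1 models and BSL78_25055, a chaperonin with no compartment given. Which of the 9 work with Hsp56 was not tested. Limma called 0 of them after 6 h at 26 °C, which is no result about them where it called 0.0641% of all tested models. Their log2 differences from control in that group ran from -1.40 to 2.80, the latter for BSL78_25055, with 4 of 9 above 0. Mortalin (BSL78_29428), the matrix HSP70 that pulls in and folds imported proteins, stood at 13.3 ± 1.87 FPKM in controls and 12.2 ± 0.334 at 26 °C for 6 h. Its 48 h and 30 °C means were 18.8 ± 2.54 and 22.5 ± 7.84. A second model of this kind, stress-70 (BSL78_00450), differed from control by 0.27, -0.73 and 0.52 (log2) in the 3 heat groups. GrpE (BSL78_09097), the nucleotide exchange factor of that HSP70, differed by -0.73, -0.09 and -0.07.

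The HSP90 of mitochondria, HSP75 or TRAP1 (BSL78_15757), stood at 6.00 ± 2.29 FPKM in controls and 1.95 ± 1.97 after 6 h at 26 °C. DNAJA3 (BSL78_03142), a J-domain partner of the matrix HSP70, varied widely between animals. Its level was 1.60, 2.84 and 2.70 FPKM in controls, 0.733, 9.31 and 17.6 at 26 °C for 6 h, while the 30 °C animals had 24.6, 127.6 and 6.60. There every animal lay above every control in the deposited values, as for 6.28% of all tested models. The log2 difference of 3.13 ± 1.02 (SE) at 30 °C did not pass the limma test (adjusted p = 0.271). HscB (BSL78_14463), a J-domain protein of iron-sulphur cluster assembly, differed from control by 0.16, 1.22 and -0.50. The BCS1 models, named for a chaperone of respiratory complex III assembly, differed by -0.28, -0.81 and -0.89 (BSL78_10676) and by -0.22, 0.18 and 0.01 (BSL78_16138).

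The remaining model of the folding list, BSL78_25055, was the 1 called at 30 °C. The file calls it a chaperonin and gives no compartment, and its coding length is 258 bases. It lies on the same scaffold as a model described as alpha subunit of the cytosolic T-complex chaperonin (BSL78_25056), which does not give its compartment. The place of BSL78_25055 among the mitochondrial models rests on the word chaperonin alone, and its compartment was not tested. Its level was 9.04, 25.7 and 55.5 FPKM in controls, 131, 138 and 276 at 26 °C for 6 h, 20.4, 51.9 and 53.7 for 48 h, and 202, 397 and 250.3 at 30 °C. In the deposited values both 6 h groups lay above every control, as for 4.81% of all tested models at 26 °C and 6.28% at 30 °C. The log2 difference was 3.46 at 30 °C (limma, adjusted p = 0.0359) and 2.80 after 6 h at 26 °C (adjusted p = 0.213). The call at 30 °C was lost in 7 of 12 fits that left out a library, namely control animal 1 or 2, animal 2 at 26 °C for 6 h, animal 2 or 3 at 48 h, and animal 1 or 2 at 30 °C. The adjusted p in those 12 fits ran from 0.0314 to 0.156. It was also lost with a pseudocount of 0.1, without the filter, with a common sum, with quantile scaling and with only the compared groups, with an adjusted p of up to 0.253.

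Across the wider list of mitochondrial folding, protease and import models, 53 of 54 were tested beside Hsp56. Limma called 0 of them at 26 °C for 6 h, 0 for 48 h and 1 at 30 °C, where it called 0.0641%, 0% and 0.651% of all tested models. At an unadjusted p under 0.05 the list had 5, 1 and 3 models, or 9.43%, 1.89% and 5.66%, against 8.06%, 4.55% and 10.4% of all tested models. By the unadjusted counts the list was near or below the background, and voom on the recovered reads also called 0, 0 and 1. The median log2 difference from control was -0.28 after 6 h at 26 °C, against -0.08 over all tested models. It was 0.07 after 48 h, against 0.03, and 0.01 at 30 °C, against -0.07, where a common sum gave -1.02 against -0.85 and quantile scaling -0.21 against -0.06. Of the 53, the models above 0 numbered 18 at 26 °C for 6 h, 28 for 48 h and 27 at 30 °C. Hsp56 was at 3.68 after 6 h at 26 °C, the group on which it was chosen. The highest of the others there was BSL78_25055 at 2.80. In the other heat groups Hsp56 lay inside their range. It was at 0.90 against a highest of 1.22 after 48 h and at 2.91 against 3.46 (BSL78_25055) at 30 °C.

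After 6 h at 26 °C the proteases and the import machinery held the lowest values of that list. Among the proteases and quality-control proteins, prohibitin-2 (BSL78_21455), a scaffold of the inner membrane, stood at 12.4 ± 6.28 FPKM in controls and 1.90 ± 2.19 after 6 h at 26 °C. Its log2 difference of -2.42 did not pass the limma test (adjusted p = 0.287). An AFG3-like 2 (BSL78_19455), a subunit of an inner-membrane protease, differed by -1.61 (adjusted p = 0.645). The highest in the group were a stomatin-like 2 (BSL78_10818) at 0.66 and HTRA2 (BSL78_09087), an intermembrane serine protease, at 0.49. Among the import models, Tim17-B (BSL78_15666), part of the inner-membrane translocase, differed by -2.23 (adjusted p = 0.491), and a Tim8 B-like (BSL78_14413) by -1.45. Tim23 (BSL78_08361), of the same translocase, differed by 0.87 and Tim21 (BSL78_21078), its regulator, by 0.44.

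Wider lists were set beside these. The 35 models of oxidative phosphorylation had median log2 differences from control of -0.29 at 26 °C for 6 h, -0.05 for 48 h and 0.52 at 30 °C, with 0 called by limma. The first of these is close to the -0.28 of the folding, protease and import list. The sign at 30 °C turned with a common sum (-0.79, against -0.85 over all tested models) and with quantile scaling (-0.52, against -0.06). That at 48 h turned with a common sum (0.13, against 0.16). The 13 models of the CCT ring, the cytosolic relative of Hsp56, had medians of 2.02, 0.18 and 2.27, with 0, 0 and 1 called, and 0 at 30 °C with a common sum or quantile scaling. The 15 inducible heat shock models had medians of 6.26, 2.99 and 11.48, of which 4, 0 and 15 rose by limma, and 2, 0 and 12 with a common sum. Over all tested models limma called 0.0481% higher after 6 h at 26 °C and 0.587% at 30 °C. Between 30 °C and 26 °C at 6 h, where limma called 0.198% of all models higher, their median difference was 4.42 with 15 above 0 and 3 called. With a common sum or quantile scaling 13 were above 0 and 0 called. Hsp56 differed between those groups by -0.77 and the neighbour by -2.66. Over all tested models, 110 were called higher and 12 lower at 30 °C than in controls, and with a common sum these counts were 37 and 23.

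**Figure D4:**
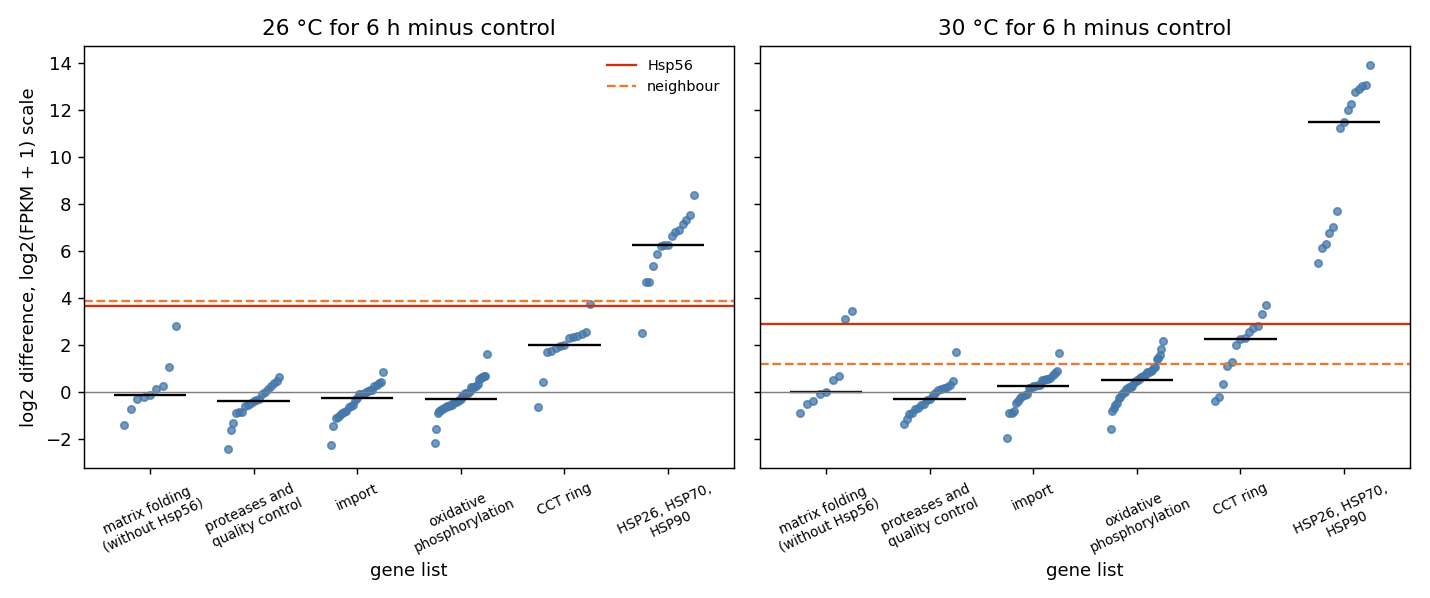
Differences from control on the log2(FPKM + 1) scale for the tested models of each list (points, with a bar at the list's median) at 26 °C and 30 °C for 6 h, with lines for Hsp56 (3.68 and 2.91) and the neighbour (3.86 and 1.20). The inducible heat shock models have medians of 6.26 and 11.48, the CCT ring 2.02 and 2.27, and oxidative phosphorylation -0.29 and 0.52.

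Genes with the pattern most like that of Hsp56 were ranked by Pearson correlation over the 12 libraries on log2(FPKM + 1). The 10 highest were a DPH3-like (BSL78_21247, r = 0.97), a chromatin regulator of subfamily A member 5 (BSL78_18924, r = 0.97) and an SGT1-like suppressor of the G2 allele of SKP1 (BSL78_21581, r = 0.96). Next came HSP90-alpha 3 (BSL78_26676, r = 0.95), a second subfamily A member 5 model (BSL78_15491), a PRP1 splicing helicase (BSL78_04481), the ubiquitin-like modifier activating enzyme 1 (BSL78_06818) and RuvB-like 1 (BSL78_05049), the last 4 at r = 0.94. An activator of the HSP90 ATPase (BSL78_20250) and HSP26 (BSL78_21248) closed the list at r = 0.93. All 10 have a description, and within groups their r ran from 0.67 to 0.91. Of the 10, 1 was called by limma after 6 h at 26 °C (HSP26) and 4 at 30 °C, against 0.0641% and 0.651% of all tested models. The 10 were picked for following Hsp56, so nothing is read from these counts.

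The neighbour's list shared 1 gene with that of Hsp56. Its highest were a GRIP1-associated protein 1 (BSL78_09597, r = 0.95), an IMD-like protein (BSL78_12555, r = 0.91), the hypothetical model BSL78_11003 (r = 0.90) and a Ran-binding protein 9 (BSL78_12927, r = 0.89). The neighbour's list also holds the hypothetical models BSL78_29774, BSL78_07179, BSL78_13866, BSL78_24489 and BSL78_01799, with r from 0.86 to 0.89. Of these, BSL78_13866 and BSL78_24489 averaged only 0.633 and 0.813 FPKM over all libraries. Of the 10 genes on this list 6 are hypothetical, 2 were called by limma after 6 h at 26 °C and 0 at 30 °C. The shares over all models were the same 0.0641% and 0.651%, and again nothing is read from this. Within groups their r ran from -0.29 to 0.80, with 3 of 10 below 0. The GRIP1-associated protein 1 was low, at 0.859 ± 0.332 FPKM in controls and 3.48 ± 0.167 at 26 °C for 6 h. Ran-binding protein 9 stood at 0.225 ± 0.253 and 5.90 ± 1.65 FPKM in those groups. The IMD-like protein had reads in the animals at 26 °C for 6 h, at 110 ± 77.5 FPKM, and 0 in the other 9 libraries. The only gene on both lists was the SGT1-like BSL78_21581, which stood at 27.0 ± 6.76 FPKM in controls, 291 ± 157 at 26 °C for 6 h, 39.3 ± 10.05 for 48 h and 141 ± 103 at 30 °C. In human and yeast, SGT1 is a partner of HSP90. Among 18728 other models the neighbour was place 49 on the list of Hsp56, and Hsp56 was place 11 on the list of the neighbour. By Spearman's rho of 0.87 these places were 39 and 6. After the group means were taken out they were 763 and 451.

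Adjacent models elsewhere in the genome gave a reference for the pair. Of 2726 other head-to-head pairs with both models tested, the median r over the 12 libraries was 0.08, with quartiles of -0.18 and 0.32, and 9 pairs (0.33%) reached the r of Hsp56 and its neighbour. Among the 504 such pairs no more than 2610 bases apart the median was 0.13, and 3 (0.595%) reached it. Tail-to-tail pairs (3140) had a median of 0.05 and same-strand pairs (6704) a median of 0.22, of which 203 (3.03%) reached it. The pair was chosen for its likeness, so these shares describe the background and test nothing.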

How the data were processed

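Intestine RNA of 12 animals (Illumina HiSeq, TruSeq reagents, per the labels' protocols) was used as the authors' deposited FPKM table of 30221 models, with descriptions, positions, strand and length per the file headers. For aligner and genome build, the entry is "not given in the sources used here". Of the lengths, 94.04% are multiples of 3 and are called coding lengths. A RefSeq gene table matched 0 identifiers. Value columns of samples outside the series numbered 0. FPKM times length was a whole multiple of a step per library for 100% of values (tolerance 0.05 read), which gave back reads.

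Groups came from the labels. Models with a mean of at least 0.5 FPKM were fitted on log2(FPKM + 1) with limma 3.58.1 (R 4.3.3), a mean per group over all 12 libraries (8 residual, 5.652 prior degrees of freedom). P-values were two-sided and Benjamini-Hochberg adjusted over all tested models at 0.05. The script recovered seeded changes in simulated data drawn at a fixed dispersion, which was not matched to the spread between these animals. That checks the code and not the calls made here. Alternatives were another pseudocount, filter, scaling, a replicate block, voom on reads and leaving out each animal. The members and gene lists were chosen with earlier results of these data known. Lists were made by words in the descriptions, and wrong matches were dropped by description. Named were the 5 flanking models on each side, all models of the folding list, the 2 highest and 2 lowest of the protease and import models at 26 °C for 6 h, and the 10 genes most like each member. After the group means were taken out, same-numbered animals of different groups correlated at a median of 0.02, and over 0.1 in 1 of 18 pairs. Animals with different numbers had a median of -0.01, and 4 of 36 pairs over 0.1, so numbers were not taken to pair animals.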

Additional observations from a re-analysis of the deposited data

How the results depend on the processing

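Over all tested models, 12 were called after 6 h at 26 °C against control. The count was 25 when the filter was set at a mean of 5 FPKM, 6 with a common sum, 0 with only the compared groups, 3 with a replicate block and 19 with voom, and 4 to 37 when single animals were left out. After 48 h against control it was 0 by limma (852 at an unadjusted p under 0.05, and 0 with voom), 2 without the filter, 1 with a common sum, 1 with the block and 0 to 1 without single animals. At 30 °C against control it was 122, and 51 without the filter, 60 with a common sum, 9 with only the compared groups and 52 to 258 without single animals. Between 30 °C and 26 °C it was 46, and 15 without the filter, 1 with a common sum, 29 with quantile scaling, 0 with only the compared groups, 17 with the block, 8 with voom and 1 to 159 without single animals. Between 48 h and 6 h it was 2, and 4 with a pseudocount of 0.1, 1 with quantile scaling, 0 with only the compared groups, 1 with the block and 1 to 4 without single animals. The count of 1 in the mitochondrial list at 30 °C (BSL78_25055, compartment not given) became 0 with a pseudocount of 0.1 or without the filter. It was also 0 with a common sum, with quantile scaling and with only the compared groups. Without single animals it was 0 to 2 (0 to 1 between 30 °C and 26 °C). Every animal moved at least 1 of these counts by over 1.5 times when left out. Leaving out 30 °C animal 3 gave the highest counts at 26 °C for 6 h (37) and 30 °C (258) against control and between them (159). Fewer animals or models enter some of these fits, and the cause of the other shifts was not tested.

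For Hsp56, a common sum gave 1.60 and quantile scaling 1.85 at 30 °C against control, -1.80 and -1.69 for 30 °C against 26 °C, and -2.33 and -2.49 for 48 h against 6 h. For the neighbour they gave -0.10 and 0.19 at 30 °C against control and -3.69 and -3.43 for 30 °C against 26 °C, and a common sum gave -3.36 for 48 h against 6 h. The cause was not tested. Without single animals, Hsp56 ran from 3.27 to 3.95, 0.49 to 1.17, 2.35 to 3.40, -1.33 to -0.28 and -2.90 to -2.64 in the 5 comparisons, in the order above. The neighbour ran from 3.68 to 4.09, -0.13 to 0.35, 0.97 to 1.43, -2.89 to -2.45 and -3.98 to -3.51. The log2 ratio, for which leaving out animals was chosen after seeing the data, ran from -0.02 to 0.41, -1.05 to -0.62, -1.999 to -1.39, -2.17 to -1.57 and -1.18 to -0.82. The replicate block left every difference of both genes as it was, since each group holds the same numbers.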

Other observations

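Genes 1 and 10 on the list most like Hsp56 are also neighbours, which was seen only after the list was made. The DPH3-like model (BSL78_21247) lies on the minus strand of scaffold MRZV01000980.1 from 68122 to 69809, and HSP26 (BSL78_21248), a small heat shock protein, on the plus strand from 70357 to 71151. They are head to head with 547 bases between the models. DPH3-like stood at 10.8 ± 2.97 FPKM among controls, 189 ± 96.6 at 26 °C for 6 h, 24.4 ± 7.03 for 48 h and 167 ± 141 at 30 °C. This model was picked for following Hsp56, so its levels are a description with no test.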
